A study of Mus musculus with 61 samples.

Results

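The 4 keratin genes Krt7, Krt8, Krt18 and Krt19 were followed in 61 single cells of the neonatal mouse ovary. They were taken by name, not by their values, from a table of 23927 gene rows, and all 4 had a row. The study measured transcripts in single oocytes and single granulosa cells of wild-type CD-1 mice, an outbred stock, on postnatal day 5. The ovaries were taken 6 h after an intraperitoneal injection of either the solvent (the vehicle control) or doxorubicin (DOXO in the labels), an anticancer drug that breaks DNA. The doxorubicin dose is written as 10 mg/kb, which is not a unit of dose, so the amount given per body weight is not known here. The series title concerns JNK signalling in oocytes and the loss of ovarian function and fertility after DNA-damaging anticancer drugs.

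There were 4 groups: 16 oocytes and 16 granulosa cells after vehicle, and 16 oocytes and 13 granulosa cells after doxorubicin. Every group was wild type, of the same age, taken at the same time after injection and labelled as the same batch. The labels name no animal, so each group counts as 1 sample, cells are not replicates of a treatment, and no test between groups was made. Differences below describe these cells. Cells are numbered as in the labels, which number the 13 doxorubicin granulosa cells up to 16 with gaps.

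Keratins are intermediate filament proteins that form filaments only as pairs of a type II with a type I chain. Krt7 and Krt8 encode type II chains, and Krt18 and Krt19 encode type I chains. KRT8 and KRT18 are the primary pair of simple, single-layered epithelia, KRT19 is a small type I chain without the usual tail, and KRT7 is typical of ducts and of the mesothelium. In the ovary, keratins of this kind are known from the surface epithelium and from the flat pregranulosa cells that surround the oocytes of primordial follicles, whereas oocytes are not epithelial cells.

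In the mm10 genome with the GENCODE M21 annotation, 3 of the 4 genes lie on chromosome 15 and are protein coding. Krt8 spans chr15:101996698-102004482 on the minus strand with 9 exons, and Krt18 spans chr15:102028180-102032027 on the plus strand with 7 exons. The intergenic stretch between them is 23698 bases, so the genes of these partners lie close together. Krt7 spans chr15:101411043-101430313 on the plus strand with 9 exons in its principal transcript, 566385 bases from Krt8. Krt19 lies apart from them in another keratin cluster, at chr11:100140810-100148665 on the minus strand, with 6 exons.

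The promoter windows are shown because the results below turn on genes that were read together in some cells and alone in others. RefSeq promoters on GRCm38.p6 were available for 3 of the 4 genes and run from 250 bases before to 50 bases after the annotated start, 5′ to 3′ on the strand of the gene. They cover chr15:101412153-101412452 for Krt7, chr15:102004293-102004592 on the minus strand for Krt8 and chr15:102027966-102028265 for Krt18. No window for Krt19 is shown. Capitals mark the motifs found.
Krt7: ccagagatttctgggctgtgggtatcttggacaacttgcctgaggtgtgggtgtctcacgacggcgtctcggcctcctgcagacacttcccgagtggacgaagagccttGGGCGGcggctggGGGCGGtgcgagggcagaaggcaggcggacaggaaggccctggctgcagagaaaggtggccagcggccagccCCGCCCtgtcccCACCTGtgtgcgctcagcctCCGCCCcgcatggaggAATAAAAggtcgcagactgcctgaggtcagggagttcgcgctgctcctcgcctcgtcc
Krt8: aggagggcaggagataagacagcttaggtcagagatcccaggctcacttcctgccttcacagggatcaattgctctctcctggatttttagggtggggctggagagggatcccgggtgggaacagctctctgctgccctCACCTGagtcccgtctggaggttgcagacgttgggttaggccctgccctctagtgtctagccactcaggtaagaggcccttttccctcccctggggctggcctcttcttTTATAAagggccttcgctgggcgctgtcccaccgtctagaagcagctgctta
Krt18: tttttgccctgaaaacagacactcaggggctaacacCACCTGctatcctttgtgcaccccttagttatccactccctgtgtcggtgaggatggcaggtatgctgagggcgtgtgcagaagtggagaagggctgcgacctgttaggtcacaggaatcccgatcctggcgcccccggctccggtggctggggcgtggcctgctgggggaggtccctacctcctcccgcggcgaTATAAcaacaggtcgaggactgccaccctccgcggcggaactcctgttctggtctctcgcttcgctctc
Both strands were searched for 5 motifs. TATAA is the core of the TATA box, at which transcription is often placed, and AATAAAA is a variant of it. GGGCGG is the GC box of SP1-type factors, which reads CCGCCC on the other strand. TGANTCA is the site of AP-1 factors, among them JUN, the main target of JNK. CACCTG is an E-box, to which repressors of the Snail family and other factors can bind. CACCTG stood once in each of the 3 windows, against 20.2% of the 32851 RefSeq promoter windows of the same length. TATAA stood in the windows of Krt8, where it overlaps its own reverse complement as TTATAA, and of Krt18, against 24.9% of all windows. The Krt7 window instead held AATAAAA, which 8.39% of windows hold, and 4 GC boxes, a motif that 35.7% of windows hold. Counted from the annotated start, TATAA began at position -1 in Krt8 and -19 in Krt18, and AATAAAA at -8 in Krt7. Whether these matches act as TATA boxes was not tested. TGANTCA, which 7.81% of all windows hold, was not among the letters of the 3 windows. A motif match describes the letters of the window only.

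Each library held between 6834594 and 31262609 counts (median 11127487), and levels are given as CPM, the reads of a gene scaled to the same total in every library. All 32 oocyte libraries had an oocyte marker sum above their granulosa marker sum. Of the granulosa libraries, 10 of 16 control and 5 of 13 doxorubicin libraries had more granulosa than oocyte marker transcripts. The sum of the oocyte markers (18 of 19 in the table, such as Zp2 and Padi6) ranged from 523 to 18047 CPM in control and from 399 to 46963 CPM in doxorubicin granulosa libraries, and all 16 oocyte markers tested were at least 2-fold higher after doxorubicin. For this and the counts below, 20.6% of the 12194 genes tested in granulosa cells were that much higher after doxorubicin and 20% that much lower. The granulosa marker sum (20 of 20, such as Inha and Amhr2, no keratin among them) ranged from 24.6 to 14611 CPM in control and from 441 to 10648 CPM in doxorubicin granulosa libraries, with no marker at 0 in either group, and 3 of 19 tested were at least 2-fold higher and 4 lower after doxorubicin, shares near those of all genes. Control cells 2, 3, 13 and 16 and doxorubicin cell 6 had under 1000 CPM of granulosa markers and stand apart from the other granulosa libraries. The stroma sum (10 markers) ranged from 1.31 to 13557 CPM in control and from 0.843 to 8645 CPM in doxorubicin granulosa libraries (0 of 10 higher and 5 lower after doxorubicin), and the surface epithelium sum (10 markers) from 0.0762 to 1153 CPM and from 0.265 to 2118 CPM (3 of 4 higher, 1 lower). Of those higher, Upk3b and Upk1b passed the minimum of 5 CPM only through the doxorubicin group. Msln was at 0 in both granulosa groups, as were Gpm6a, Muc16 and Cldn15 in the control group. Steroidogenic markers reached 8055 and 6277 CPM (0 of 1 higher, 1 lower), with Cyp17a1 and Insl3 at 0, endothelial markers 366 and 189 CPM (0 of 3 higher, 2 lower), and blood and immune markers 466 and 35132 CPM (5 of 6 higher, 1 lower), with Ptprc at 0. No 2 libraries held identical values, each library is labelled as 1 cell, and no doublet caller was run.

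Keratin reads were near 0 or far above it in single cells, with almost nothing between. Of the 244 keratin values (4 genes in 61 cells), 146 were at 0 reads and 36 had 1 to 4 reads. Only 2 values lay between 5 and 10 reads, 0 lay between 11 and 38, and 60 values had 39 reads or more, up to 8145. A cell is therefore called positive here from 5 reads on. In the granulosa libraries the lowest value above 10 reads was 94, and in oocytes it was 39. Being positive in only part of the cells was not particular to keratins. In control granulosa cells Jup was positive in 7 of 16 (median 0.167, highest 454 CPM) and Lsr in 5 of 16 (0.0373 and 340 CPM), both genes of cell junctions. Vim, by contrast, was positive in all 16. How common either pattern was over all genes was not counted. In SMART-seq libraries reads are not tagged by molecule, so the intervals given below cover counting error only and not the amplification of a few starting molecules.

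**Figure D1:**
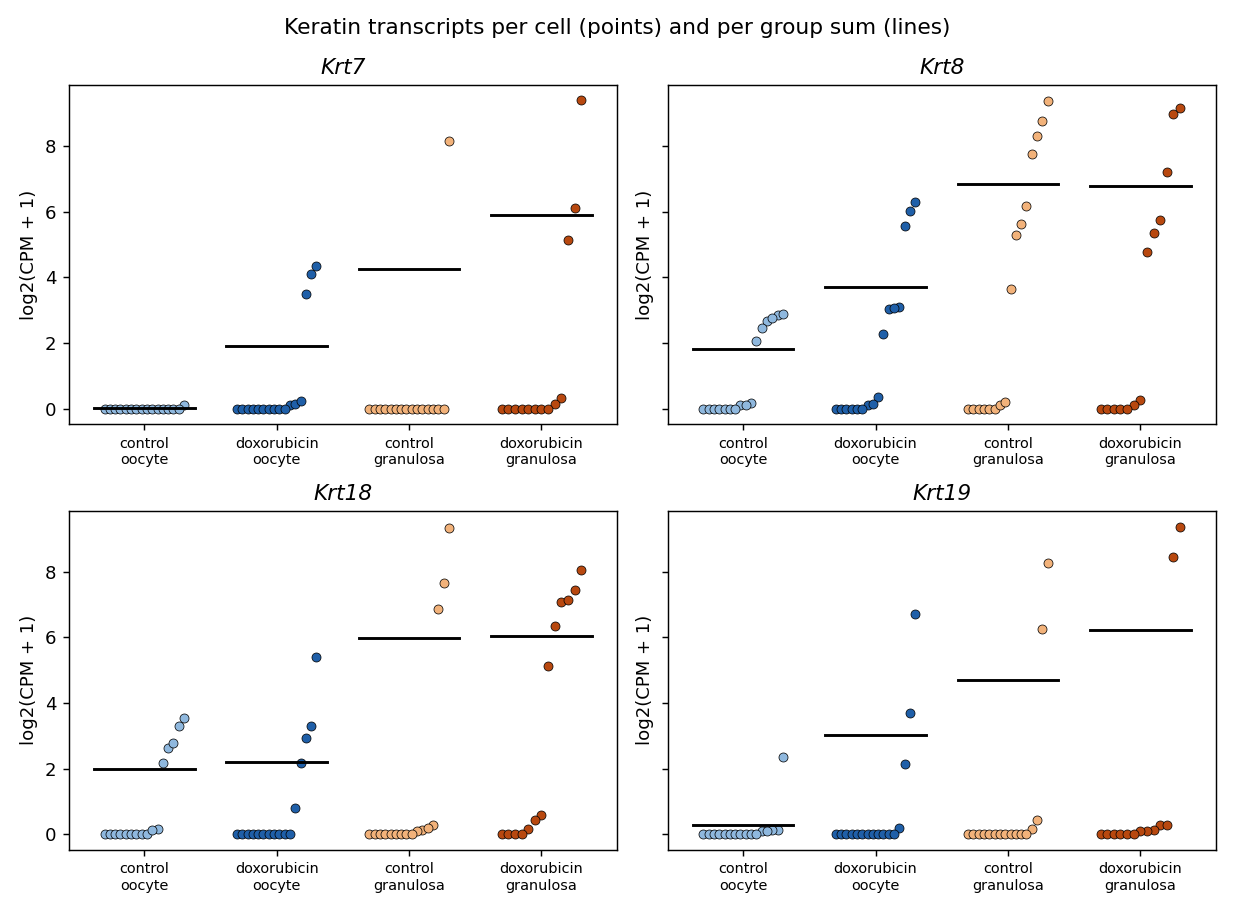
Level of each keratin gene in every cell, as log2(CPM + 1) on the vertical axis, for the 4 groups on the horizontal axis. Each point is a cell, sorted by level within its group, and the line is the CPM of the summed reads of the group. The points fall at the bottom or far above it, and the line of Krt7 in control granulosa rests on 1 cell at 283 CPM.

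Krt8, the type II chain of the primary pair, was positive in 14 of the 29 granulosa cells, more than any other of the 4 genes over both groups together. In control granulosa cells it ranged from 0 to 656 CPM with a median of 5.78 CPM, and 8 of 16 cells were positive. In doxorubicin granulosa cells it ranged from 0 to 567 CPM with a median of 0.208 CPM, and 6 of 13 were positive. The control median lay inside the gap between negative and positive cells and the doxorubicin median among the negative cells, and the positive cells of both groups covered overlapping spans, from 11.4 CPM upward in control and from 26.1 CPM upward after doxorubicin. In oocytes Krt8 went up to 6.30 CPM after vehicle (6 of 16 positive, median 0.0860 CPM) and up to 77.7 CPM after doxorubicin (7 of 16 positive, median 0.185 CPM).

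The share of positive cells hardly separated the cell types. With every cell thinned to 5000000 counts, Krt8 was positive in 50% of control granulosa cells (exact 95% binomial interval 24.7 to 75.3%) and in 37.5% of control oocytes (15.2 to 64.6%), and the unthinned shares were identical. After doxorubicin it was positive in 46.2% of granulosa cells (19.2 to 74.9%) and 43.8% of oocytes (19.8 to 70.1%). In control cells it was the level that set granulosa cells apart: 8 of 16 control granulosa cells had more Krt8 than every control oocyte. Whether the reads of a positive cell of either type were expression by that cell was not tested. The median depth was 11478173 counts in control granulosa cells and 10941952 in control oocytes.

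Krt18, the type I partner of Krt8, was positive in 3 control granulosa cells, fewer than Krt8. It was at or near 0 in 13 of 16 control granulosa cells (median 0 CPM) and stood at 114, 201 and 642 CPM in cells 12, 11 and 3. After doxorubicin 7 of 13 granulosa cells were positive, with a median of 0.519 CPM and a maximum of 261 CPM. The highest control oocyte had 10.6 CPM and the highest doxorubicin oocyte 41.0 CPM, and 5 oocytes were positive in each group. Thinned to equal depth, 18.75% of control granulosa cells and 31.25% of control oocytes were positive for Krt18, so in control cells too the difference lay in the level of the few positive cells. After thinning, 46.2% of doxorubicin granulosa cells (53.8% unthinned) and 25% of doxorubicin oocytes (31.25% unthinned) were positive.

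Krt19, the second type I gene, was rarer. It was positive in 2 of 16 control granulosa cells, cell 3 at 304 CPM and cell 1 at 75.3 CPM, and in 2 of 13 doxorubicin granulosa cells, cell 6 at 662 CPM and cell 15 at 349 CPM. Both doxorubicin cells lay above every control cell, and all other granulosa cells were under 1 CPM. In oocytes it was positive in 1 control cell at 4.12 CPM and in 3 doxorubicin cells, of which cell 10 stood at 103 CPM and the other two at 11.8 and 3.42 CPM.

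Krt7, the type II gene of ducts and mesothelium, was positive in a single control granulosa cell, cell 8, at 283 CPM, and at 0 in the other 15. The library of cell 8 had the highest oocyte marker sum of its group, 18047 CPM, with 8404 CPM of stroma and 3086 CPM of granulosa markers. After doxorubicin 3 of 13 granulosa cells were positive, cell 6 at 668 CPM, cell 2 at 68.2 CPM and cell 15 at 34.4 CPM. Only cell 6 of these exceeded the control cell. No control oocyte was positive (0 of 16, which allows a share of up to 18.75%, taken as 3 of 16 cells), and the highest had 0.0806 CPM. Of the doxorubicin oocytes, cells 12, 10 and 11 had 19.1, 16.1 and 10.2 CPM.

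Per kilobase of the principal transcript, which allows levels to be compared between genes, the primary pair led in control granulosa cells: Krt8 had 57.9 and Krt18 43.2 CPM per kilobase. Krt19 followed with 15.8 and Krt7 with 4.36 CPM per kilobase. After doxorubicin the order was Krt8 at 55.8, Krt19 at 46.7, Krt18 at 44.9 and Krt7 at 14.2 CPM per kilobase. Each of these group levels leaned on few cells, and no neighbours in the order are separated by more than the spread between cells. The Krt7 values use its longest transcript of 4094 bases, against 1958 for Krt8, 1437 for Krt18 and 1576 for Krt19, and would be higher on a shorter one.

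Although a filament needs a type II and a type I chain, reads of both types often did not occur in the same library. Of 29 granulosa cells, 8 were positive for at least 1 gene of each type, 7 for type II genes only, 3 for type I genes only and 11 for neither. Krt8 and Krt18 were positive together in 7 granulosa cells, Krt8 without Krt18 in 7 and Krt18 without Krt8 in 3. By group, cells with Krt8 but not Krt18 numbered 6 of 16 after vehicle and 1 of 13 after doxorubicin, and cells with both numbered 2 and 5. Control cell 1 is an example of the first kind, with 313 CPM of Krt8 and 0 reads of Krt18, and doxorubicin cell 14 of the reverse, with 174 CPM of Krt18 and 0 reads of Krt8. All 4 genes were positive in doxorubicin granulosa cells 6 and 15 and in doxorubicin oocyte 10.

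As a description over the 29 granulosa cells, which share library preparation and differ in depth, log2(CPM + 1) of Krt8 and Krt18 had a Pearson r of 0.51 and a Spearman rho of 0.41. Without the 2 cells farthest from the median of Krt8 the r was 0.39. In the 16 control cells alone the r was 0.39, and it was -0.23 without the 2 farthest cells, so there it rested on those cells. In the 13 doxorubicin cells the r was 0.70 with a rho of 0.56, and 0.61 without the 2 farthest.

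**Figure D2:**
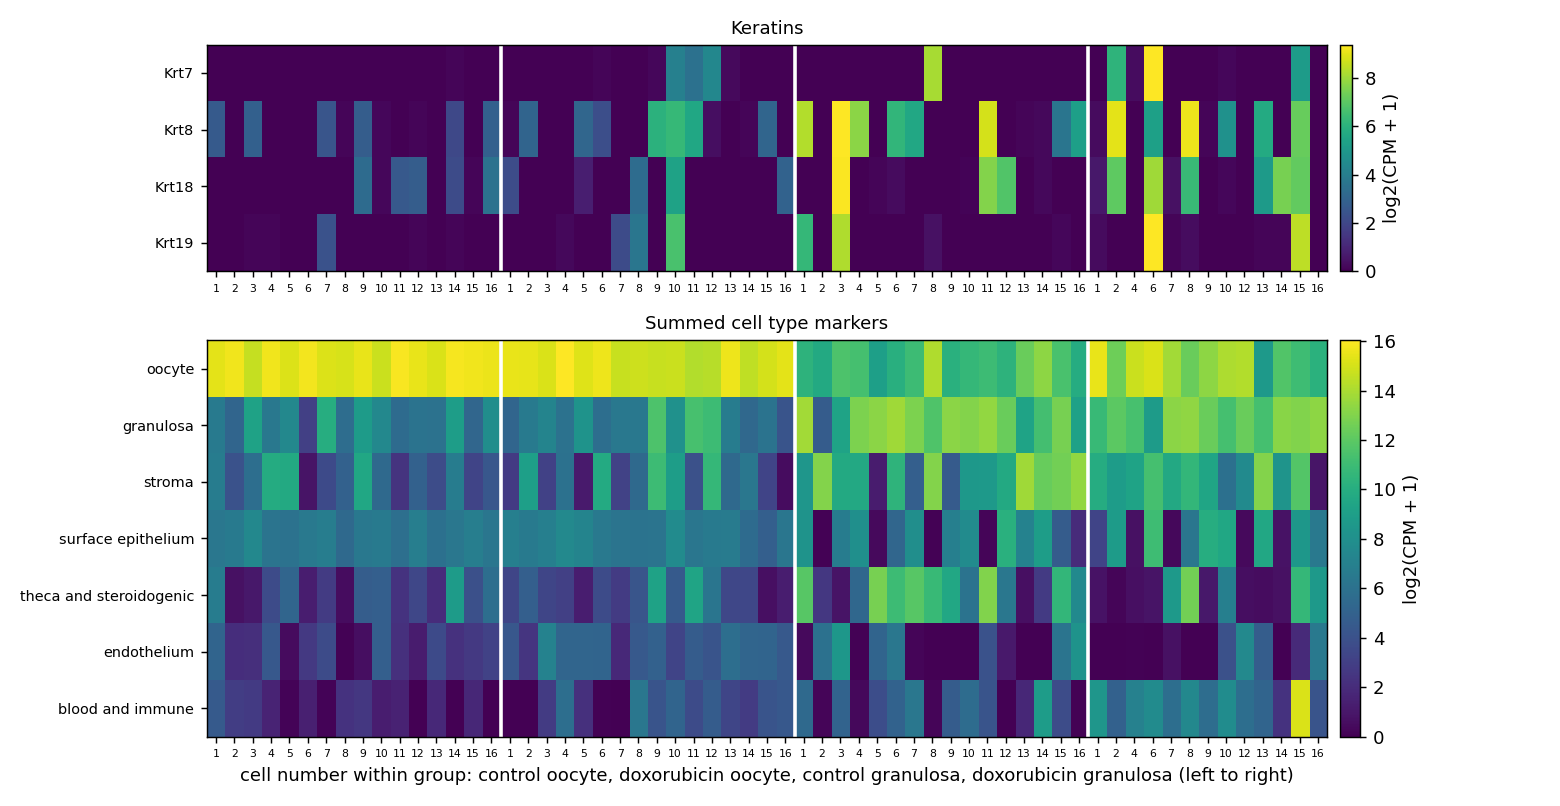
Keratin genes (upper panel) and summed cell type markers (lower panel) in every cell, coloured by log2(CPM + 1), with cells in the order of their numbers and white lines between control oocytes, doxorubicin oocytes, control granulosa and doxorubicin granulosa cells from left to right. Keratin-positive granulosa cells occur among libraries with high and with low granulosa marker sums, and doxorubicin granulosa cell 6 has all 4 keratins with 2118 CPM of surface epithelium markers.

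The level of granulosa markers did not sort keratin-positive from keratin-negative granulosa libraries. Among the 11 granulosa libraries with over 8000 CPM of granulosa markers, 6 were positive for a keratin and 5 for none. Among the other 18, 12 were positive and 6 were not. Control cells 5, 9 and 10 and doxorubicin cells 7 and 16, with 8493 to 10189 CPM of granulosa markers, had under 1 CPM of all 4 keratins together, whereas control cells 1 and 11 had 388 and 634 CPM with 14611 and 11081 CPM of granulosa markers. Across the 29 libraries the keratin sum and the granulosa marker sum had a Pearson r of 0.09 and a Spearman rho of 0.03 on log2(CPM + 1), and r was 0.05 without the 2 farthest libraries.

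The highest keratin sum of each granulosa group lay in a library with few granulosa transcripts. Control granulosa cell 3 had 1602 CPM of the 4 keratins, and its granulosa marker sum of 623 CPM ranked 13 of 16. Of the 20 granulosa markers 7 were at 0 in this cell, among them Fst, and Inha was at 1.45 CPM. Amhr2 stood at 164 CPM, and 1 marker, Rspo1 at 208 CPM, was the highest of the group. The endothelial marker sum of this cell, 366 CPM, was also the highest of its group. All of it was Tek, and the other 7 endothelial markers, among them Pecam1, Cdh5 and Kdr, were at 0 in this cell. Of 25 genes of epithelial adhesion and identity, 18 were at 0 in this cell, among them Cdh1, Ocln and Spint2, and Epcam was at 0.161 CPM. The median of the other control granulosa cells was also 0 for Cdh1, Ocln and Epcam, but 191 CPM for Spint2. How many of the 25 were at 0 in each other cell was not counted. Lsr, a protein of tricellular junctions, at 340 CPM, and Elf3, an epithelial transcription factor, at 173 CPM were the highest of the group, and Krt15, another type I keratin, stood at 25.2 CPM. Its surface epithelium sum of 105 CPM ranked 9 of 16, nearly all of it Aldh1a2.

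Doxorubicin granulosa cell 6 had 1630 CPM of the 4 keratins and the lowest granulosa marker sum of its group, 441 CPM. Its surface epithelium sum of 2118 CPM ranked 1 of 13. Its largest part was Aldh1a2, an enzyme of retinoic acid synthesis, at 1233 CPM, which reached 1004 CPM in another cell of the group. The uroplakins Upk3b and Upk1b, membrane proteins found in mesothelium and urothelium, stood at 639 and 146 CPM, against at most 80.5 and 0.0811 CPM in the other 12 cells. This library supplied 89.9% of the Upk3b reads and 99.9% of the Upk1b reads of its group, together with 35335 CPM of oocyte markers and 1062 CPM of Acta2, a smooth muscle actin. Lrrn4 and Msln, also markers of the surface epithelium, were at 0 in every doxorubicin granulosa cell. Doxorubicin cell 15, the other granulosa cell with all 4 keratins, had 8311 CPM of granulosa markers and 35132 CPM of blood and immune markers, mostly haemoglobin. The part of these other markers in the keratin levels was not tested.

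The comparison of treatments asked how granulosa cells differed 6 h after doxorubicin. For the primary pair the summed levels over all libraries were close: 109 CPM of Krt8 after doxorubicin against 113 CPM in control cells, and 64.5 against 62.1 CPM of Krt18. The log2 ratios were -0.05 (counting interval -0.08 to -0.02) and 0.05 (0.01 to 0.09). No doxorubicin cell lay above all control cells for either gene. Single cells decided both values: the ratio of Krt8 ran from -0.85 without doxorubicin cell 8 to 0.58 without control cell 3, and that of Krt18 from -0.36 without doxorubicin cell 6 to 1.76 without control cell 3.

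Krt7 and Krt19 were higher in the doxorubicin granulosa sum, at 58.0 against 17.8 CPM (log2 ratio 1.70, counting interval 1.64 to 1.76) and at 73.7 against 24.9 CPM (1.57, 1.52 to 1.62). Thus 2 of the 4 genes were at least 2-fold higher and none at least 2-fold lower, where 20.6% of the 12194 genes that reached 5 CPM in one of the groups were that much higher and 20% that much lower, with a median log2 ratio of -0.03. Both values followed doxorubicin cell 6, which held 87.1% of the Krt7 and 68.0% of the Krt19 reads of its group. Without it the ratio of Krt7 was -1.14 and that of Krt19 was 0.04, and without control cell 8 Krt7 had a lower bound of 11.67, the control group then being at 0 reads. Without control cell 3, which held 84.3% of the control Krt19 reads, that ratio was 4.14. The summed level of all 4 genes was 305 CPM after doxorubicin and 218 CPM in control cells (0.49), between -0.15 without doxorubicin cell 6 and 1.40 without control cell 3. When the 5 libraries with under 1000 CPM of granulosa markers were left out, the ratios were -1.62 for Krt7, 0.34 for Krt8, 0.97 for Krt18, 2.23 for Krt19 and 0.43 for their sum. Libraries with more granulosa than oocyte markers (5 of 13 and 10 of 16) gave 0.64 for Krt8, 3.22 for Krt19 and 1.16 for the sum. In these libraries Krt18 was at 85.7 against 28.7 CPM (1.58), and Krt7 had a lower bound of 7.73, its control group being at 0 reads. Among libraries with under 50 CPM of surface epithelium markers (5 of 13 after doxorubicin and 7 of 16 control cells), Krt7 was at -9.50 (-11.78 to -7.96) on 3 doxorubicin reads and Krt8 at -11.04 (-14.09 to -9.19) on 2, so that the primary pair was not close there: Krt8 had 0.0363 against 76.7 CPM and Krt18 39.1 against 26.8 CPM (0.54). The sum was then at -1.87. Among the surface epithelium markers Aldh1a2 had a group level of 149 CPM in control and 353 CPM in doxorubicin granulosa cells. Nkain4 was at 19.1 and 6.25 CPM and Upk3b at 0.211 and 53.8 CPM, so the cut at 50 CPM followed mainly Aldh1a2.

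**Figure D3:**
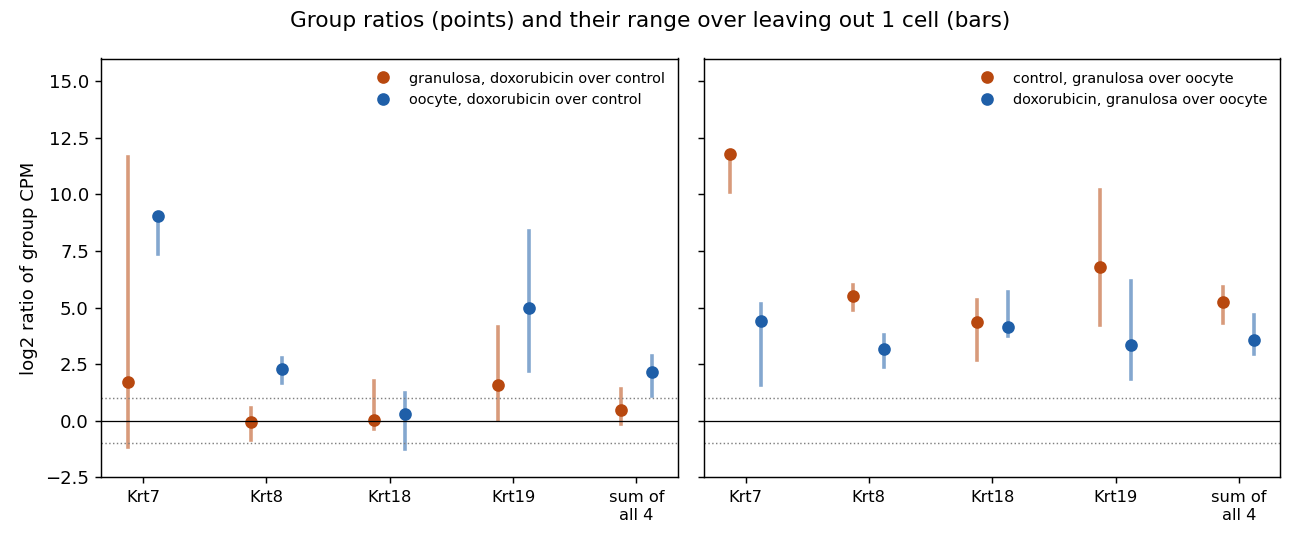
Log2 ratios of the group CPM of each keratin and of their sum, for doxorubicin over control (left) and granulosa over oocyte (right). Points are the values over all cells, bars span the values when each cell is left out in turn, and dotted lines mark a 2-fold difference; the bar of Krt7 in granulosa cells runs from -1.14 to 11.67, where the upper end is a lower bound because the control group is then at 0 reads.

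In oocytes the keratins were low, and their sums were higher after doxorubicin. The sum of the 4 genes ranged from 0 to 16.9 CPM in control oocytes and reached 238 CPM in doxorubicin oocyte 10, and 5 of 16 doxorubicin oocytes lay above all control oocytes. Krt8 had a group level of 12.1 against 2.48 CPM (log2 ratio 2.29, 2.15 to 2.43) and Krt19 of 7.18 against 0.225 CPM (4.996, 4.56 to 5.46). Both passed the minimum of 5 CPM only through the doxorubicin group, where they were higher. Of the 2 genes past that minimum, both were at least 2-fold higher, where 6.3% of 11119 genes were that much higher and 2.45% that much lower. Krt18 was at 3.65 against 2.99 CPM (0.29), and Krt7 was at 2.72 CPM against 1 read in all control oocytes (log2 ratio 9.06, 6.57 to 14.36). The latter 2 genes were under the minimum in both groups.

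Oocyte 10 carried much of this difference. It held 86.5% of the Krt19 reads of the doxorubicin oocytes, and without it the ratios were 2.20 for Krt19, -1.26 for Krt18, 1.67 for Krt8 and 1.08 for the sum. Without doxorubicin oocyte 12 the ratio of Krt7 was 8.32, and without control oocyte 14, which held the 1 control read, it had a lower bound of 7.38. Leaving out control oocyte 16 gave 1.24 for Krt18 and 2.84 for the sum, and leaving out control oocyte 7 gave 8.38 for Krt19. Oocyte 10 also had the highest surface epithelium marker sum of its group, 217 CPM, 273 CPM of granulosa markers, and the highest Dcn, a stromal proteoglycan, at 360 CPM.

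The keratin level of oocyte libraries moved with their granulosa transcripts. Doxorubicin oocytes 9, 11 and 12 had keratin sums of 63.8, 56.9 and 19.4 CPM and the 3 highest granulosa marker sums of all oocytes, 3033, 2684 and 2077 CPM. The other 13 doxorubicin oocytes had at most 300.5 CPM of granulosa markers, and control oocytes between 7.23 and 1037 CPM. Over the 32 oocytes, which share library preparation, the keratin sum and the granulosa marker sum had a Pearson r of 0.61 and a Spearman rho of 0.63 on log2(CPM + 1), and r was 0.48 without the 2 farthest cells. When only oocytes under 200 CPM of granulosa markers were kept, 11 of 16 in each group, the ratio of the sum was 1.59. The part of granulosa transcripts in the oocyte values beyond this was not tested.

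**Figure D4:**
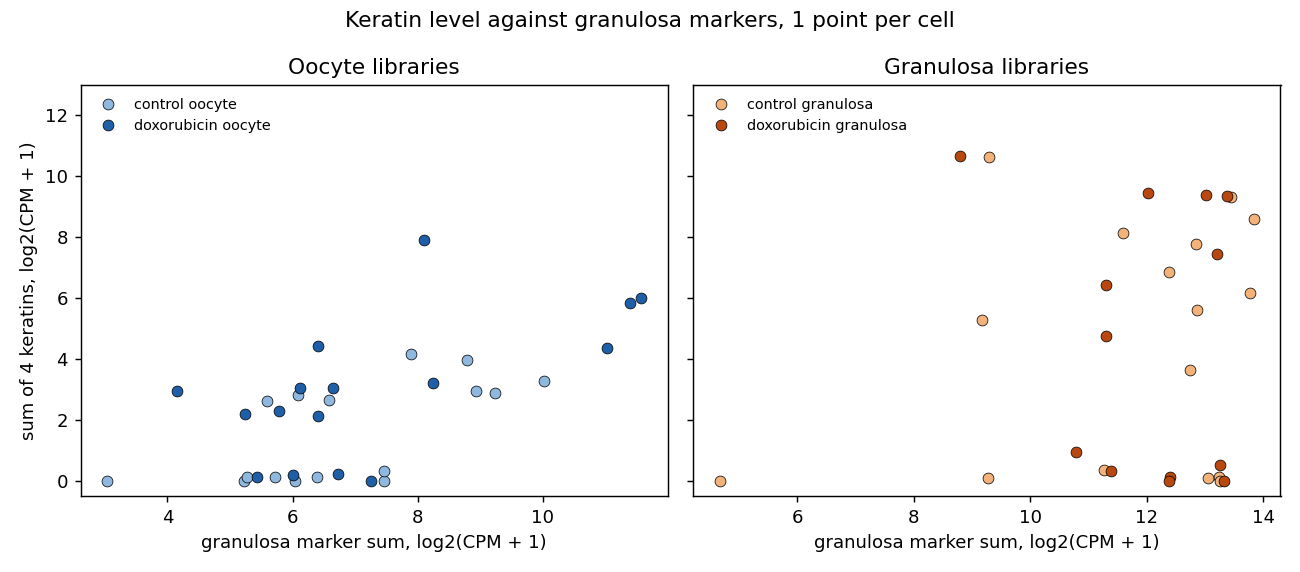
Sum of the 4 keratins against the sum of 20 granulosa markers, both as log2(CPM + 1), in oocyte libraries (left) and granulosa libraries (right), with 1 point per cell. In oocytes the 3 libraries with the most granulosa markers have keratin sums of 63.8, 56.9 and 19.4 CPM, while granulosa libraries with over 8000 CPM of granulosa markers have keratin sums from 0 to 669 CPM.

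Over all libraries, keratins had a higher summed CPM in granulosa cells than in oocytes after either treatment. CPM is a share of the reads of a library, so it does not give the number of transcripts per cell. After vehicle the sum of the 4 genes was 218 CPM in granulosa cells and 5.71 CPM in oocytes (log2 ratio 5.26), and 9 of 16 granulosa cells lay above every oocyte while the others overlapped with them. The log2 ratio of Krt8 was 5.51 (5.38 to 5.65), that of Krt18 4.37 (4.25 to 4.50) and that of Krt19 6.79 (6.36 to 7.25). That of Krt7, at 17.8 CPM against 1 read in all control oocytes, was 11.77 (9.29 to 17.07). All 4 genes were at least 2-fold higher in granulosa cells, as were 31.3% of the 12373 genes that reached 5 CPM in one of the groups, while 29% were at least 2-fold lower. The keratins passed that minimum only through the granulosa group, so the count of 4 follows in part from the filter. Without control granulosa cell 3 the ratios were 4.88 for Krt8, 2.67 for Krt18, 4.22 for Krt19 and 4.34 for the sum, and Krt7 had no value without control granulosa cell 8. In the 10 control granulosa cells with more granulosa than oocyte markers, Krt7 was at 0 reads. Krt18 was at 5.32 and the sum at 5.93 without control oocyte 16, Krt19 was at 10.18 without control oocyte 7, and Krt7 had a lower bound of 10.09 without control oocyte 14. Among the 7 control granulosa cells with under 50 CPM of surface epithelium markers, Krt19 was at -1.87 (-3.56 to -0.54) on 5 reads.

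After doxorubicin the sum was 305 CPM in granulosa cells and 25.7 CPM in oocytes (3.57), and 4 of 13 granulosa cells lay above every oocyte. The ratios were 4.42 for Krt7, 3.17 for Krt8, 4.14 for Krt18 and 3.36 for Krt19, and 28.2% of 12428 genes were at least 2-fold higher and 27.6% at least 2-fold lower. All 4 genes were again at least 2-fold higher, Krt7 and Krt18 passing the minimum only through granulosa cells. Without doxorubicin granulosa cell 6 the ratio was 1.58 for Krt7, 1.83 for Krt19 and 2.94 for the sum. It was 2.37 for Krt8 without doxorubicin granulosa cell 8 and 5.16 for Krt7 without doxorubicin oocyte 12. Without doxorubicin oocyte 10 it was 3.79 for Krt8, 5.69 for Krt18, 6.16 for Krt19 and 4.66 for the sum. Among the 5 doxorubicin granulosa cells with under 50 CPM of surface epithelium markers, Krt7, Krt8 and Krt19 were lower than in oocytes, at -5.64 (-7.92 to -4.08), -8.38 (-11.43 to -6.53) and -6.63 (-8.50 to -5.27) on 3, 2 and 4 reads. The 4 comparisons share groups of cells and are not independent of each other.

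Of 17 other keratins listed, 10 had a row in the table, and 3 of these reached 5 CPM in a granulosa group. Krt79, a type II keratin of skin and glands, was at 65.8 CPM in control and 62.5 CPM in doxorubicin granulosa cells, against 22.1 and 12.4 CPM in oocytes, and it was positive in 10 of 16 and 8 of 13 granulosa cells. The one other keratin at least 2-fold higher in doxorubicin granulosa cells was Krt20, a type I keratin of gut and urothelium, at 15.2 CPM against 0 reads. Krt20 thus passed the minimum of 5 CPM only through the doxorubicin group. None of the 3 was that much lower, and their median log2 ratio was -0.07. In oocytes 0 of 2 tested differed 2-fold between treatments.

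Vim, the intermediate filament of mesenchymal cells, was found in nearly every granulosa library, unlike the keratins. It ranged from 13.2 to 1991 CPM in control granulosa cells, with all 16 positive, and was positive in 12 of 13 after doxorubicin, with group levels of 641 and 574 CPM against 29.9 and 40.2 CPM in oocytes. Of 8 other intermediate filament genes tested between treatments in granulosa cells, 1 was at least 2-fold higher (Lmnb2, a nuclear lamin, 22.1 to 83.3 CPM) and 3 lower (Des, Ina and Bfsp1), with a median log2 ratio of -0.21. Des (38.2 to 1.82 CPM) and Ina (17.6 to 0.00699 CPM) passed the minimum of 5 CPM only through the control group. Single control cells carried both. Des stood at 547 CPM in control granulosa cell 3 and at no more than 6.35 CPM in any other cell of that group. Ina was positive in 1 of 16 control granulosa cells, at 241 CPM. In oocytes 0 of 9 were past 2-fold, with a median of 0.10, and Bfsp1, a filament protein of the eye lens, had its highest level there, at 368 CPM in control oocytes.

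Among the 16 genes that tie keratin filaments to desmosomes and other junctions, 13 were tested between treatments in granulosa cells: 2 were at least 2-fold higher and 3 lower, shares near the 20.6% and 20% of all genes, with a median of -0.46. Dsp, the plakin that anchors keratins at desmosomes, was at 48.6 against 5.79 CPM, and 1 doxorubicin cell was positive, at 573 CPM. Jup (plakoglobin) was at 66.5 and 91.6 CPM in doxorubicin and control granulosa cells and higher in oocytes, at 200.3 and 238 CPM. Itga6, the laminin receptor chain of hemidesmosomes, was positive in 13 of 16 control and 13 of 13 doxorubicin granulosa cells, at 433 CPM after vehicle and 470 CPM after doxorubicin, against 42.4 and 40.3 CPM in oocytes. In oocytes 1 of 9 of these genes was at least 2-fold higher after doxorubicin (Pkp3) and none lower, with a median of 0.08. Over all genes there, 6.3% were that much higher and 2.45% lower.

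Of the genes whose products bind keratins or cut them, 10 of 12 were tested, and in granulosa cells 0 differed 2-fold between treatments, with a median of -0.17. In oocytes 3 of 10 were at least 2-fold higher after doxorubicin, against the 6.3% of all genes given above, and none was lower, with a median of 0.07. They were Tchp (trichoplein, which binds KRT8 and KRT18 filaments), at 113 against 36.6 CPM (log2 ratio 1.63), Casp6 (caspase 6, a protease that cuts KRT18), at 119 against 47.3 CPM (1.34), and Fam83h, at 7.57 against 0.107 CPM. Fam83h passed the minimum of 5 CPM only through the doxorubicin group, with 33.9% of its reads there in oocyte 10. Unlike the keratins, Tchp and Casp6 were positive in all 32 oocytes, and their ranges overlapped: Casp6 ran from 29.5 to 83.3 CPM (median 46.1) after vehicle and from 41.0 to 252 CPM (median 91.6) after doxorubicin, and Tchp from 14.01 to 115 CPM (median 30.3) and from 8.37 to 371 CPM (median 76.4). Dnajb6, a chaperone that binds KRT18, was at 542 and 529 CPM in control and doxorubicin oocytes and at 132 and 208 CPM in granulosa cells.

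The genes of epithelial adhesion and identity did not follow the keratins across cell types. Of 21 tested after vehicle, 3 were at least 2-fold higher in granulosa cells and 14 at least 2-fold lower, where 31.3% of all genes were that much higher and 29% lower. The median log2 ratio of the 21 was -3.68 against 0.03 over all genes. Epcam, an epithelial adhesion molecule, stood at 204 CPM in control oocytes and 15.3 CPM in control granulosa cells, and Esrp1, a splicing factor of epithelia, at 198 and 2.20 CPM. F11r, a tight junction protein, went the other way, at 30.8 CPM in oocytes and 181 CPM in granulosa cells. The 4 keratins were higher in granulosa cells in the same comparison. Between treatments in granulosa cells, 7 of 16 of these genes were at least 2-fold higher after doxorubicin and 4 lower, where 20.6% of all genes were that much higher and 20% lower, with a median of 0.96 against -0.03 over all genes. Esrp1 (14.2 against 2.20 CPM) and Spint1 (9.20 against 0.0278 CPM) passed the minimum of 5 CPM only through the doxorubicin group. Marveld2 (0.0839 against 9.95 CPM) passed it only through the control group, so these counts follow in part from the filter. Of the surface epithelium list 3 of 4 tested genes were higher and 1 lower in that comparison, but Upk3b and Upk1b were tested only through the doxorubicin group, mainly its cell 6. Cell 6 supplied 60.7% of the Esrp2 reads and 23.2% of the Epcam reads of its group. Without the 5 libraries under 1000 CPM of granulosa markers 7 were higher and 4 lower of 16, with a median of 0.52. Over all genes tested in the libraries kept, 2635 of 12083 were higher and 2327 lower, with a median of -0.02. In the same libraries the surface epithelium list had 1 of 3 higher and 1 lower, the stroma list 2 of 9 higher and 2 lower (median -0.10, against -1.42 over all libraries), and the other intermediate filaments 1 of 6 higher and 1 lower (median 0.10). In oocytes 4 of 22 were higher and 1 lower after doxorubicin, with a median of 0.01, where 6.3% of all genes were higher and 2.45% lower.

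No gene followed the keratins closely across granulosa cells. Among 7634 genes with at least 20 CPM in a granulosa group and 5 reads in at least 10 of the 29 libraries, the highest Spearman rho with the keratin sum was 0.67, for Hnrnpul2, a nuclear RNA-binding protein, followed by Stard3nl at 0.60 and Ing5, Atp2c1, Nr3c1 (the glucocorticoid receptor), Stxbp2, Rogdi and 1700025G04Rik at 0.56 to 0.59. The 99th percentile over all these genes was 0.46. In the 16 control cells alone, 0 of these 8 genes were again among the 8 highest. For single keratins the most alike were Zfp869 (0.73), Hnrnpul2 and Ptp4a3 for Krt8, Narf (0.67), Slc9a3r1 and Fbxw11 for Krt18, Smim3 (0.59), Rhebl1 and Sult5a1 for Krt19, and Nthl1 (0.63), Elp5 and Zfp830 for Krt7. A row for Krt8-ps, a processed pseudogene of Krt8 on chromosome 7, held 17 reads in all control granulosa cells and 14 in those after doxorubicin, and how reads were divided between Krt8 and its copies is not given in the sources used here.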

How the data were processed

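Single cells were sequenced from SMART-seq libraries, per the labels' protocols. The authors deposited estimated counts, in 1 table of genes by cells. The submitters' processing notes name Partek, HISAT2, Bowtie2, DESeq2 and mm10, with no role or version, and how estimated counts arise is not given in the sources used here. Of the values above 0, 34.0% were not whole, and all were rounded to whole numbers. The table holds 22 rows with date-like gene names, which carry 0.144% of the counts.

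Reads were summed over the cells of a group and divided by the summed totals (CPM). Log2 ratios carry 95% exact conditional binomial intervals, CPM exact Poisson intervals and shares exact Clopper-Pearson intervals. A group at 0 reads was set to 3 reads, which makes its ratio a bound. Genes that reached 5 CPM in one of the groups entered the counts past 2-fold. The ratio code was tested on simulated data. Each cell was thinned to 5000000 counts for the shares.

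The 4 genes and the gene lists were chosen with earlier results of these data known. Named genes are the 4 keratins, up to 8 genes of each of 5 pathway lists and up to 4 of each of 7 marker lists with the highest CPM, of at least 20 in a group, and the 8 genes most like the keratin sum and 3 for each keratin. Other genes of single keratin-rich cells and genes past 2-fold (Krt20, Krt15, Elf3, Rspo1, Upk1b, Fam83h, Cdh1, Ocln, Pkp3, Esrp2 and the markers given as at 0) were named after their values were seen. Alternatives were TMM factors of edgeR 4.0.16, DESeq2 1.42.0 size factors, equal weight of cells, differences of the cells' medians of log2(CPM + 1), values not rounded, subsets of libraries by marker sums, other minimums and leaving out each cell. Analyses used Python 3.11.15, numpy 2.4.6, pandas 2.3.3, scipy 1.17.1 and R 4.3.3. The library labelled doxorubicin oocyte 4 is stated to have lost its raw data, and its column was kept.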

Additional observations from a re-analysis of the deposited data

How the results depend on the processing

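No test was made, so only the ratios and counts can move. Leaving out each cell in turn, the log2 ratio of the keratin sum ran from -0.15 to 1.40 in granulosa cells (doxorubicin over control), from 1.08 to 2.84 in oocytes, from 4.34 to 5.93 for granulosa over oocyte after vehicle and from 2.94 to 4.66 after doxorubicin. In granulosa cells (doxorubicin over control, 0.49) the sum was 0.51 with cells weighted equally, -0.68 as a difference of the cells' medians of log2(CPM + 1), 0.52 with TMM and 0.52 with DESeq2 factors. It was 1.16 in libraries with more granulosa than oocyte markers (5 of 13 and 10 of 16 kept), 0.56 in those with more granulosa than stroma markers, -1.87 in those under 50 CPM of surface epithelium markers (5 and 7 kept) and 0.43 in those over 1000 CPM of granulosa markers, a choice made after seeing the data. In oocytes (2.17) it was 2.64 with equal weights, 1.52 by medians and 1.59 in oocytes under 200 CPM of granulosa markers. For granulosa over oocyte after vehicle (5.26), equal weights gave 5.60, medians 3.98, DESeq2 factors 5.17, the filters on oocyte and stroma markers 4.63 each, that on surface epithelium 4.65, that on granulosa markers 4.68 and that on oocytes 7.10. After doxorubicin (3.57) the values were 3.47, 1.78 and 3.53, then 3.02 with the stroma filter, 0.61 with the surface epithelium filter, 2.94 with the granulosa filter and 5.99 with the oocyte filter. Ratios past 2-fold turned their direction as follows. Krt7 in granulosa cells (doxorubicin over control) was at -1.14 without doxorubicin cell 6 (a lower bound of 11.67 without control cell 8), -1.62 over 1000 CPM of granulosa markers and -9.50 under 50 CPM of surface epithelium markers. Under that last filter, granulosa over oocyte was -1.87 for Krt19 after vehicle and -5.64, -8.38 and -6.63 for Krt7, Krt8 and Krt19 after doxorubicin. Ratios within 2-fold also changed sign when 1 cell was left out, to 0.58 for Krt8 and -0.36 for Krt18 in granulosa cells and to -1.26 for Krt18 in oocytes. The cause was not tested.

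Without a minimum on low genes, 4529 genes instead of 701 were at least 2-fold higher in oocytes after doxorubicin and 3333 instead of 272 lower; at 20 CPM they were 245 and 69. In granulosa cells 2511 and 2440 became 4959 and 5223 without the minimum and 1527 and 1464 at 20 CPM. For granulosa over oocyte without the minimum, 3868 and 3590 became 6691 and 8639 after vehicle, and 3509 and 3430 became 5871 and 8710 after doxorubicin. No paired analysis was possible because the numbers only name single cells and no animal is given. The number of cells, 13 to 16 a group, limits how precisely a group level is known.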
